A study of Mus musculus with 6 samples.

Results

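A set of 101 genes was examined whose transcript level was lower with a hairpin against the Pkm1 isoform and higher with a hairpin labelled as directed against the Pkm2 isoform of pyruvate kinase. The set opens with the neurofilament genes Nefl and Nefm, the chromatin genes Hmga1 and Hmga1b and the guidance receptor gene Robo1, and it holds 10 genes of the clustered core histones. Members were chosen by the deposited TPM values (a level scaled to transcript length and to the sum of its library). For each of 17558 genes the TPM of its transcripts was summed, the 2 libraries of a group were averaged, 1 was added and the log2 ratio to the control was taken. Genes with a ratio of at most -0.4 in the Pkm1 hairpin cells and at least 0.4 in the Pkm2 hairpin cells were kept, which is a 1.32-fold difference of TPM + 1. The rule also left out Ngfr and the Prl2c and Pcdh genes, and 0 genes that met the cutoffs carried those names. Because the ratios chose the members, their levels are described without a test.

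RNA was sequenced from the mouse myoblast line C2C12, whose cells withdraw from the cell cycle and fuse into myotubes when growth serum is replaced. All 6 libraries came from cells kept for 48 h in differentiation medium with horse serum, insulin, transferrin and selenium. The control group is labelled shScr with the genotype WT and is read here as a scrambled hairpin. The other groups are labelled shPkm1 (genotype Pkm1 Knockdown) and shPkm2 (genotype Pkm2 Knockdown), and each group has 2 libraries. The labels do not say how the hairpins were delivered, whether a group is 1 clone or a pool, or whether replicates were separate cultures, so p-values measure only the spread between these libraries, which may be technical. In these bulk samples, fewer cells of a kind and less RNA per cell cannot be told apart. Cells without any hairpin were not analysed here.

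The Pkm2 isoform (NM_011099.3) was measured at 1073 and 1517 TPM in shScr, 1278 and 1379 in shPkm1 and 2700 and 2630 in shPkm2, which is no lower with its own hairpin label than in the controls. The Pkm1 isoform (NM_001253883.1) was at 546 and 589 TPM in shScr, 243 and 218 in shPkm1 and 254 and 254 in shPkm2, below the controls in both hairpin groups. The third group is therefore called the shPkm2-labelled libraries. A library held between 18216896 and 19796036 estimated counts, and log2 CPM of replicates correlated across genes at 0.988 to 0.994. Summed over 10 markers, myoblast genes stood between 1330 and 4254 TPM. Endothelial markers summed to 1.81 to 4.94 TPM and macrophage markers to 1.41 to 6.07, with Tie1, Emcn, C1qa, C1qb and Tyrobp at 0 in every library, while 8 of 9 endothelial and 6 of 8 macrophage markers in the table stayed under 1 TPM. Fibroblast markers summed to 1055 and 1342 TPM in shScr, 3750 and 3540 in shPkm1 and 1155 and 1067 in the shPkm2-labelled libraries. Adipocyte markers summed to 10.3 and 7.56 TPM in shScr, 12.6 and 12.5 in shPkm1 and 34.1 and 31.1 in the shPkm2-labelled libraries, and osteoblast and chondrocyte markers to 17.9 and 23.5, 34.3 and 30.8, and 53.7 and 47.4. Of the fibroblast markers, Col3a1, Pdgfrb, Cd34, Dcn, Pdgfra, Pi16, Dpt and Lum were higher in both shPkm1 libraries than in either control, for example Col3a1 at 2984 and 2854 TPM against 663 and 887, Pdgfrb at 247 and 244 against 41.0 and 54.1 and Cd34 at 125 and 106 against 4.34 and 4.44. Ly6a and Thy1 were not. Lpl gave 29.4 and 26.6 of the adipocyte sum in the shPkm2-labelled libraries and Sox9 and Runx2 most of the osteoblast and chondrocyte sum. Adipoq, Plin1, Lep and Retn stayed at or below 0.17 TPM, and Cfd, Ibsp and Sost were at 0. Neuronal and Schwann cell markers, which include the member Syn1, summed to 30.4 and 50.02 TPM in shScr, 33.0 and 34.2 in shPkm1 and 61.9 and 57.8 in the shPkm2-labelled libraries, with Sox10 and Snap25 at 0. The part of these marker sums in the members' levels was not tested.

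As background, Hmga proteins bind AT-rich DNA with AT hooks and bend it, and core histones are produced mainly when DNA is replicated. Igf2bp proteins bind messenger RNAs and control their stability and translation, and Igf2bp2 is known from proliferating myoblasts. Neurofilaments are intermediate filaments of axons, and Robo proteins are receptors for the Slit guidance ligands. Dusp phosphatases remove phosphate from MAP kinases, and Pdk4 is a kinase that inhibits pyruvate dehydrogenase, the enzyme that draws on the product of pyruvate kinase.

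Promoter sequences are shown first for members that share a short motif. The RefSeq promoter table (GRCm38.p6, 250 bases before to 50 after a start) held 106 promoters of 76 members, and 25 members had none in it, Nefl and Nefm among them. The palindrome TGACGTCA, the consensus of the cyclic AMP response element, occurred in 7 of these 106 promoters (6.6%) and in 588 of all 32851 promoters (1.79%). The windows below give 6 of these matches, each with up to 20 bases on either side, on the strand of the gene and with the motif in capitals. They lie at chr10:30200571-30200618 for Cenpw, chr9:44134609-44134656 for Mcam, chr7:6730570-6730617 for Peg3, chrX:20921050-20921097 for Syn1, chr13:22043082-22043129 for H2ac11 and chr4:132075536-132075563 for Epb41.
Cenpw (minus strand): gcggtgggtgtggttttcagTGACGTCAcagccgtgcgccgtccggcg
Mcam (plus strand): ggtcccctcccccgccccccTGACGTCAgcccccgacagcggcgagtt
Peg3 (minus strand): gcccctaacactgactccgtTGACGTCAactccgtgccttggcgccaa
Syn1 (minus strand): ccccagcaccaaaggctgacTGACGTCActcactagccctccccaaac
H2ac11 (minus strand): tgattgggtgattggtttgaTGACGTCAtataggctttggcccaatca
Epb41 (minus strand): TGACGTCAgcgaccataccagccaatcc
Counted from the start of transcription, the motif begins at -29 in Mcam, -58 in Cenpw, -159 in Syn1, -160 in H2ac11 and -178 in Peg3, and at the far edge of the window, at -250, in Epb41. The remaining match lies in 9330159F19Rik, a gene with a predicted name, at -7. A match is a description of letters and shows no binding.

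Histone members are the largest group of neighbouring genes in the set, and the 250 bases before the start are printed for H3c3 and H4c4, which differ in layout. Capitals mark CCAAT on either strand and, in H4c4, TATAAA. H3c3 holds CCAAT 5 times and TATAAA 0 times, and H4c4 holds each once, with CCAAT on the other strand. The stretches are chr13:23745522-23745771 (minus strand) and chr13:23581318-23581567 (plus strand).
H3c3: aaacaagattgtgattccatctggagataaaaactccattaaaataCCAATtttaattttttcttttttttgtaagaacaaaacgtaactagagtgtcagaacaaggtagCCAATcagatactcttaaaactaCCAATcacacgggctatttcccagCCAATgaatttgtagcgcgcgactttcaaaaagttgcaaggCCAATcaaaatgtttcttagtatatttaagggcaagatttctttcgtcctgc
H4c4: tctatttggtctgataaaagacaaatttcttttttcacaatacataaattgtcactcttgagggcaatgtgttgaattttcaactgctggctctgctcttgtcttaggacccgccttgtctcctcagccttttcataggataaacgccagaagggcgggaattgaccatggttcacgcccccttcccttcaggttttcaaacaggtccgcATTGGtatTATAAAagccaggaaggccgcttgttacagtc
Of the promoters of the 10 histone members, 9 held CCAAT and 5 held TATAAA. Among 53 promoters of clustered core histones of the table as a whole, 45 held CCAAT and 30 held TATAAA. These letters therefore occur in members and in other histone genes alike.

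Other motifs were counted on both strands in the same 300 bases, and overlaps between motifs were not removed. CCAAT was in 46.2% of member promoters and 37.4% of all promoters, the GC box GGGCGG in 45.3% and 35.7%, and the E-box CAGCTG, of the kind bound by myogenic factors, in 20.8% and 16.3%. AP-1 (TGANTCA) was in 8.49% and 7.81%, the antioxidant core TGACNNNGC in 13.2% and 12.4%, and TATAAA in 11.3% and 13.6%. The Tead motif GGAATG was in 8.49% of member promoters, below the 14.7% of all promoters. Several members have more than 1 promoter in the table, so promoters are not independent, and the median GC content was 54.7% in members and 52.7% in all. The median number of CG dinucleotides was 10.5 in member promoters and 7 in all. TGACGTCA and GGGCGG each hold a CG, and the part of this difference in their shares was not tested.

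Members were mostly low to moderately abundant genes. Their median level in shScr was 3.77 TPM, from 0.38 for Arl14epl to 206 for Bex3, beside 5.78 over the 16387 genes above 0 TPM. In 66 members the control mean was under 5 TPM and in 11 it was at least 20. By estimated counts, 77 members had a mean of at least 50 over the 6 libraries, 24 had fewer, and 12 had fewer than 20. The low-count filter of the count test kept 100 members.

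The median log2 ratio of members was -0.71 in shPkm1 and 0.87 in the shPkm2-labelled libraries, against 0.15 and 0.15 over all genes above 0 TPM. At least 1 on the log2 scale in both directions was reached by 12 members, and in 58 the difference was larger in the shPkm2-labelled libraries. The libraries of the 3 groups did not overlap, in the order shPkm1, shScr, shPkm2, for 92 members. Over all 16387 genes that order without overlap was seen in 439 (2.68%), and since the rule asked for the order nothing is read from the difference. Counts without overlap that are given below for single roles follow from the same rule and are no trait of a role. The remaining 9 members, Ncf4, Stra6, H3c10, H2ac11, H4c2, Zfp967, Gnpda1, H3c8 and Tnfrsf9, overlapped between groups.

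**Figure D1:**
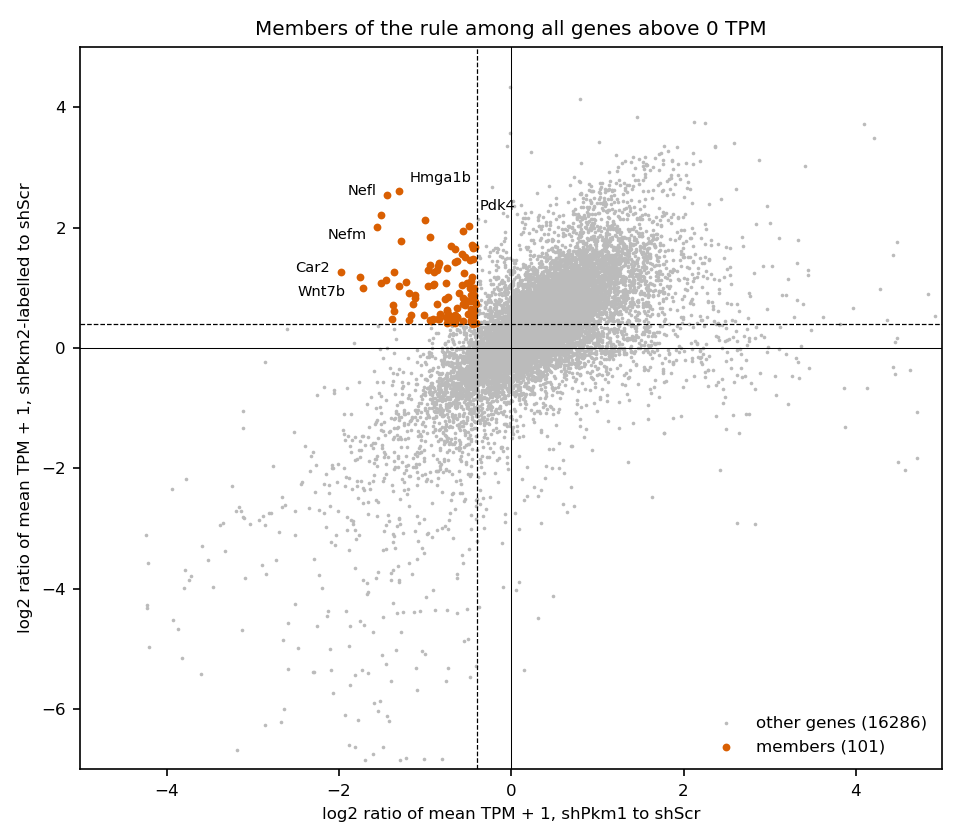
Log2 ratio of mean TPM + 1 to shScr for each gene above 0 TPM, shPkm1 on the x axis and the shPkm2-labelled libraries on the y axis; dashed lines mark the cutoffs of -0.4 and 0.4, and 16 genes lie outside the axes. The 101 members (orange) fill the upper left corner by construction, with Hmga1b and Nefl highest and Car2 and Wnt7b farthest left; both axes share the control libraries.

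TPM is relative to all other transcripts, and the median ratio of the 12643 genes that passed the low-count filter was 0.31 in shPkm1 and 0.36 in the shPkm2-labelled libraries. Relative to such a shift the members lie lower on both sides. With counts scaled by TMM (trimmed mean of M values, which sets the bulk of genes to no change), the median log2 fold change of members was -1.52 in shPkm1 and 0.65 in the shPkm2-labelled libraries. Of the 100 members with a value, 100 were at most -0.4 in shPkm1 and 66 at least 0.4 in the shPkm2-labelled libraries. There 98 were above 0, and Rnaseh2c (-0.04) and AI413582 (-0.00248) were just below it. TMM moves the bulk of genes down in both hairpin groups, so the count in shPkm1 was fixed by the rule and supports nothing. TPM divided by the TMM factor left 66 of the members within the rule. That division kept 14 of 15 chromatin members, 7 of 7 axon guidance and adhesion members and 7 of 8 neuronal members, but 6 of 13 metabolic members and 5 of 10 transcription factors. Control library 2 was higher than control library 1 in 80 members, where 71.4% of the tested genes had that order. A difference of more than 1.5-fold of TPM + 1 between libraries was seen for 19 members in shScr, 4 in shPkm1 and 3 in the shPkm2-labelled libraries.

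**Figure D2:**
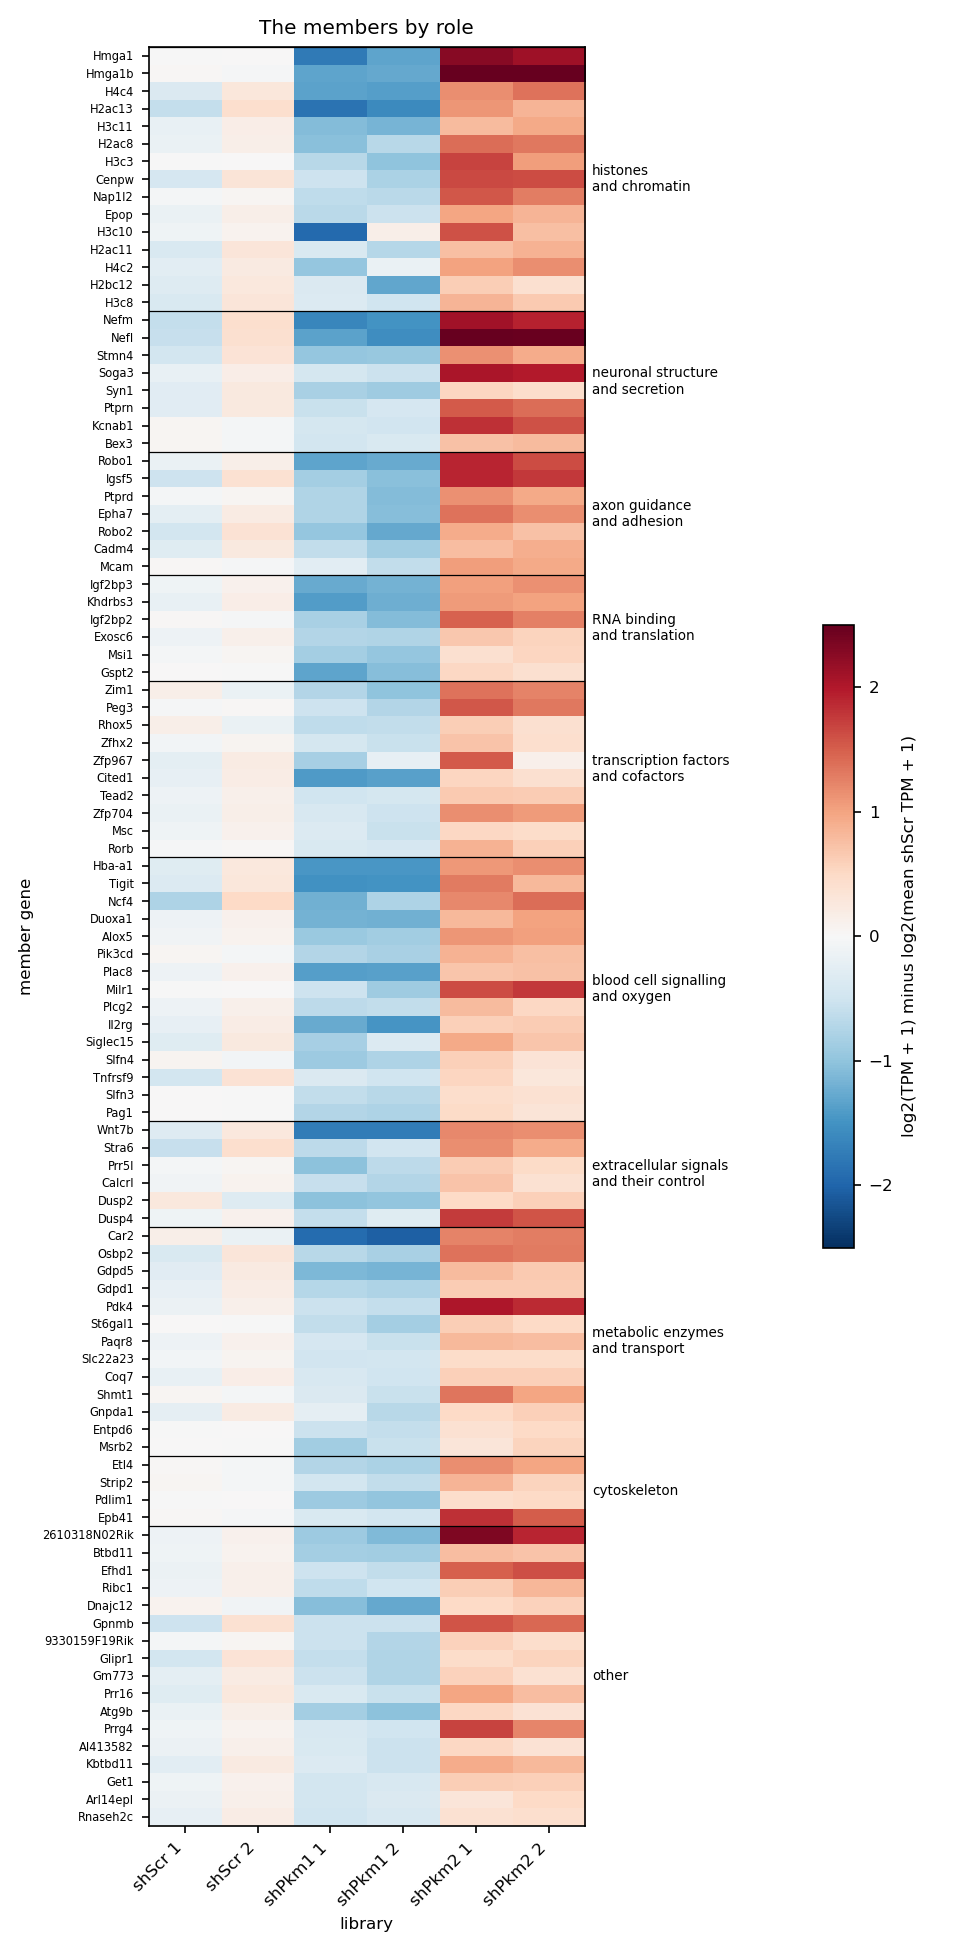
Level of all 101 members in the 6 libraries, as log2(TPM + 1) minus log2 of the mean shScr TPM + 1, grouped by role; blue is below and red above the control mean, and colours are cut at 2.5. The shPkm1 columns are blue and the shPkm2 columns red in nearly every row by construction, except that shPkm1 library 2 is above the control mean in H3c10, and control library 2 is redder than control library 1 in 80 rows.

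The group with the largest differences in the shPkm2-labelled libraries, apart from the neuronal members, was chromatin. Its 15 members had a median ratio of -0.76 in shPkm1 and 1.24 in the shPkm2-labelled libraries. Hmga1 (chr17:27556574-27563672) was at 12.7 and 12.8 TPM in shScr, 3.07 and 4.55 in shPkm1, and 65.9 and 58.8 in the shPkm2-labelled libraries. Hmga1b (chr11:120762794-120764392), a second Hmga1 gene with a single locus of its own, stood at 85.4 and 82.1 TPM in shScr. It was at 32.8 and 34.1 TPM in shPkm1 and at 527 and 509 in the shPkm2-labelled libraries. The mean of Hmga1b was therefore 2.5-fold higher in shScr than in shPkm1, and 6.19-fold higher in the shPkm2-labelled libraries than in shScr, with no overlap. Of the 31-base words in Hmga1b transcripts, 92.7% also occur in Hmga1 transcripts, so how counts were split between the pair is uncertain. Summed over the 3 Hmga genes the level was 100.01 and 97.8 TPM in shScr, 41.3 and 42.9 in shPkm1, and 655 and 623 in the shPkm2-labelled libraries. Hmga2, which is no member, was at a mean of 2.36, 4.83 and 58.4 TPM in the 3 groups. In the edgeR quasi-likelihood test Hmga2 had a log2 fold change of 0.58 in shPkm1 (adjusted p 0.00502) and 4.16 in the shPkm2-labelled libraries (adjusted p 3.23e-11). Hmga2 thus rose in both hairpin groups.

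Histone members came from all 4 core classes, with H3c3, H3c8, H3c10 and H3c11 for H3, H4c2 and H4c4 for H4, H2ac8, H2ac11 and H2ac13 for H2A and H2bc12 for H2B. H4c4 was at 1.63 and 3.10 TPM in shScr, 0.33 and 0.30 in shPkm1, and 6.52 and 7.59 in the shPkm2-labelled libraries. H2ac13 was at 3.86 and 8.83 TPM in shScr, 1.03 and 1.44 in shPkm1, and 14.9 and 12.2 in the shPkm2-labelled libraries. Libraries did not overlap between groups in either gene, and the controls of H2ac13 differed by more than the shPkm1 mean. H3c10, at 2.59 and 3.10 TPM in shScr, was listed at 0 and 3.25 in shPkm1, so its membership rests on 1 library.

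The core histone genes of the clusters did not share 1 pattern. Of 54 such genes above 0 TPM, 25 were lower in shPkm1 and higher in the shPkm2-labelled libraries, and the median ratios were -0.54 and 0.28. The 10 members, which the rule chose for that order, are among the 25 and enter the medians. The share of all genes with that order was not counted, so nothing is read from the 25. The most abundant ones were no members: H2ac24 was at a mean of 365, 637 and 1362 TPM in shScr, shPkm1 and the shPkm2-labelled libraries, H2ac23 at 158, 348 and 587, and H2bc4 at 145, 93.6 and 63.2. The median of the mean count over these genes was 10.6. Between 14.7% and 94.2% of the 31-base words of the 10 histone members occur in transcripts of other genes, H4c4 having the lowest and H3c10 the highest share. Single histone values are therefore uncertain. 

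Other chromatin members were Cenpw, a centromere protein, Nap1l2, a histone chaperone of the nucleosome assembly family, and Epop, a partner of Polycomb complexes. Cenpw stood at 3.05 and 5.85 TPM in shScr, 2.80 and 2.13 in shPkm1, and 16.1 and 16.0 in the shPkm2-labelled libraries. Its libraries did not overlap between groups, and the larger difference was with the shPkm2 label.

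Neuronal structure and secretion was represented by 8 members with a median ratio of -0.67 in shPkm1 and 1.59 in the shPkm2-labelled libraries, and none of them overlapped between groups. Nefm (chr14:68119545-68125004) was at 2.37 and 5.80 TPM in shScr, 0.65 and 0.81 in shPkm1, and 20.8 and 18.2 in the shPkm2-labelled libraries. Nefl (chr14:68083863-68089095), which lies 30.5 kb from it, was at 5.45 and 11.7 TPM in shScr, 2.78 and 2.27 in shPkm1, and 57.0 and 52.1 in the shPkm2-labelled libraries. The rule fixes the order of group means for each of them, and in both genes control library 2 was above control library 1. The other neurofilament partners were near 0: Nefh stayed at or below 0.23 TPM and Ina at or below 0.08 in every library. Light and medium subunits were therefore measured without the heavy subunit.

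Kcnab1, a beta subunit of voltage-gated potassium channels, was at 0.56 and 0.46 TPM in shScr, 0.12 and 0.08 in shPkm1, and 4.38 and 3.54 in the shPkm2-labelled libraries. These are 4 and 3 counts in shPkm1, so the lower level there rests on few reads. Bex3, a small signalling adaptor gene on the X chromosome and the most abundant member in shScr, was at 212 and 201 TPM there, 150 and 157 in shPkm1, and 343 and 357 in the shPkm2-labelled libraries. Its TMM-scaled log2 fold change in the shPkm2-labelled libraries was 0.30, under the cutoff. Bex1 and Bex2 stayed at or below 0.92 TPM in every library, so the Bex3 pattern has no expressed paralogue beside it. Syn1 of synaptic vesicles, Ptprn of secretory granules and Stmn4, a stathmin that acts on microtubules, are also in this group, with Syn1 at 13.7 and 19.97 TPM in shScr, 9.11 and 8.62 in shPkm1, and 24.7 and 23.1 in the shPkm2-labelled libraries. With TMM scaling Syn1 was at 0.07 (SE 0.121) in the shPkm2-labelled libraries, under the cutoff.

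**Figure D3:**
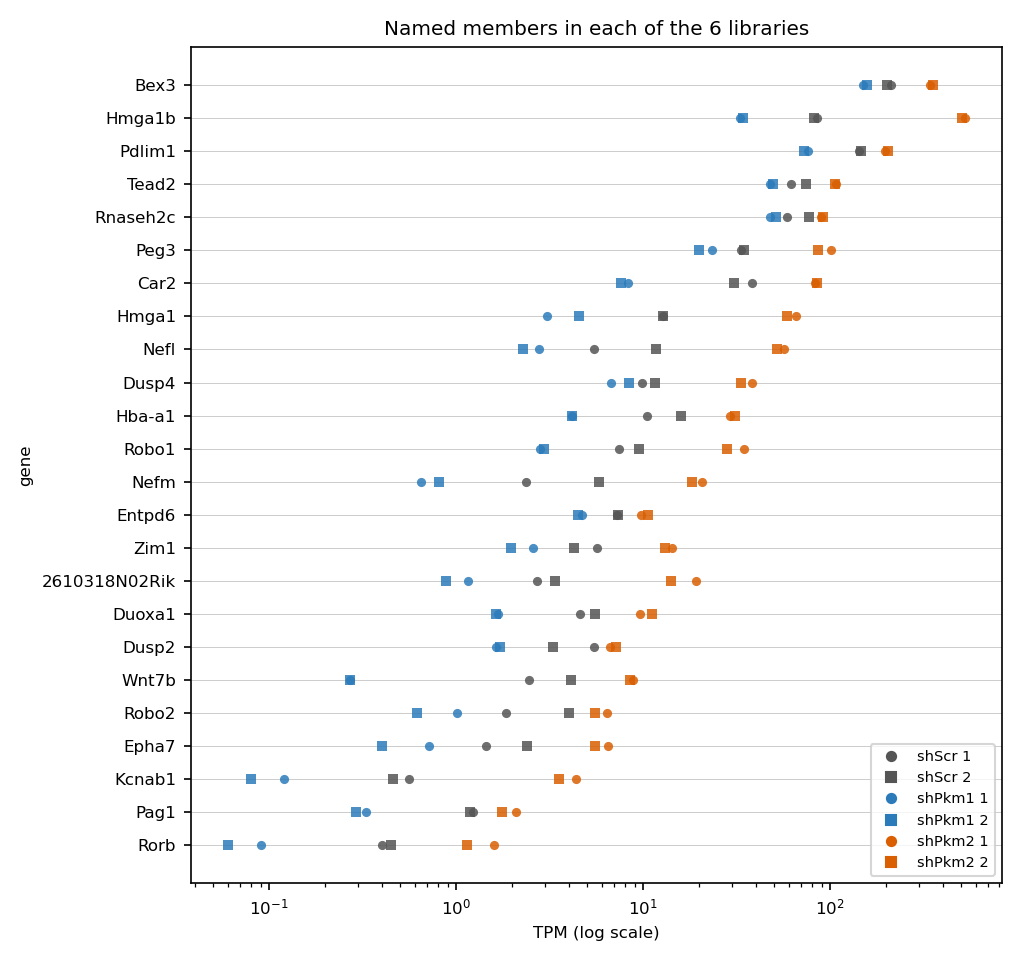
TPM on a log scale for each named member in the 6 libraries (circles replicate 1, squares replicate 2), ordered by mean level. In each row shPkm1 is at the left, shScr between and shPkm2 at the right without overlap; the gap to shPkm2 is wide for Hmga1b, Nefl and Kcnab1 and narrow for Rnaseh2c and Dusp2.

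Axon guidance and adhesion held 7 members, with median ratios of -0.91 and 1.04 and no overlap between groups, as in 92 of all 101 members. Robo1 (chr16:72027518-73047491) was at 7.46 and 9.48 TPM in shScr, 2.82 and 2.95 in shPkm1, and 34.5 and 28.2 in the shPkm2-labelled libraries. Robo2, the next member on the same chromosome, was at 1.84 and 4.02 TPM in shScr, 1.01 and 0.62 in shPkm1, and 6.45 and 5.52 in the shPkm2-labelled libraries. The remaining Robo genes were near 0, with Robo3 at or below 0.46 TPM and Robo4 at or below 0.03. Of their ligands, only Slit2 was above 1 TPM, at means of 2.47, 11.5 and 6.59 TPM in shScr, shPkm1 and the shPkm2-labelled libraries. Slit2 rose in both hairpin groups (edgeR quasi-likelihood test, log2 fold change 1.86 with adjusted p 3.63e-06, and 0.98 with adjusted p 0.000711). The receptors were chosen for lower levels in shPkm1, where the ligand rose.

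Epha7, a receptor for membrane-bound ephrins, was at 1.45 and 2.38 TPM in shScr, 0.72 and 0.40 in shPkm1, and 6.46 and 5.55 in the shPkm2-labelled libraries. The adhesion genes Igsf5, Ptprd, Cadm4 and Mcam complete the group, with control means from 1.38 to 4.92 TPM. Guidance genes were read from a list of 55, of which 53 were in the table and 3 are members. Of the 46 other genes tested, 24 were higher and 7 lower in shPkm1, where 31.8% of all tested genes were higher and 31.4% lower (edgeR quasi-likelihood test, adjusted p under 0.05). In the shPkm2-labelled libraries 23 were higher and 13 lower, with 33.9% and 34.2% of all genes, and between the hairpin groups 14 were higher and 20 lower in the shPkm2-labelled libraries, with 25.7% and 27.3% of all genes. The medians of the 46 genes were 0.32, 0.26 and -0.07, against 0.00, 0.01 and 0.00 over all tested genes. Without control library 1 the 7 lower genes in shPkm1 became 11, and with library totals in place of TMM they became 4. The list as a whole did not have the pattern of its 3 members.

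RNA-binding members numbered 6 and none overlapped, with median ratios of -1.06 and 0.82. Igf2bp2 was at 13.1 and 12.6 TPM in shScr, 6.91 and 5.49 in shPkm1, and 37.4 and 32.1 in the shPkm2-labelled libraries. Igf2bp3 was at 1.67 and 2.10 TPM in shScr, 0.21 and 0.27 in shPkm1, and 4.91 and 5.36 in the shPkm2-labelled libraries. The order of their group means was fixed by the rule, and Igf2bp3 was the less abundant. Igf2bp1, Lin28a and Lin28b, which act with them in embryonic tissue, stayed at or below 0.30 TPM. Khdrbs3, a splicing regulator, Msi1, a Musashi translational regulator, Gspt2, a translation termination factor, and Exosc6, a subunit of the RNA exosome, are the other members. All 31-base words of Exosc6 also occur in a transcript annotated to Aars, so its counts could hold reads of that gene.

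**Figure D4:**
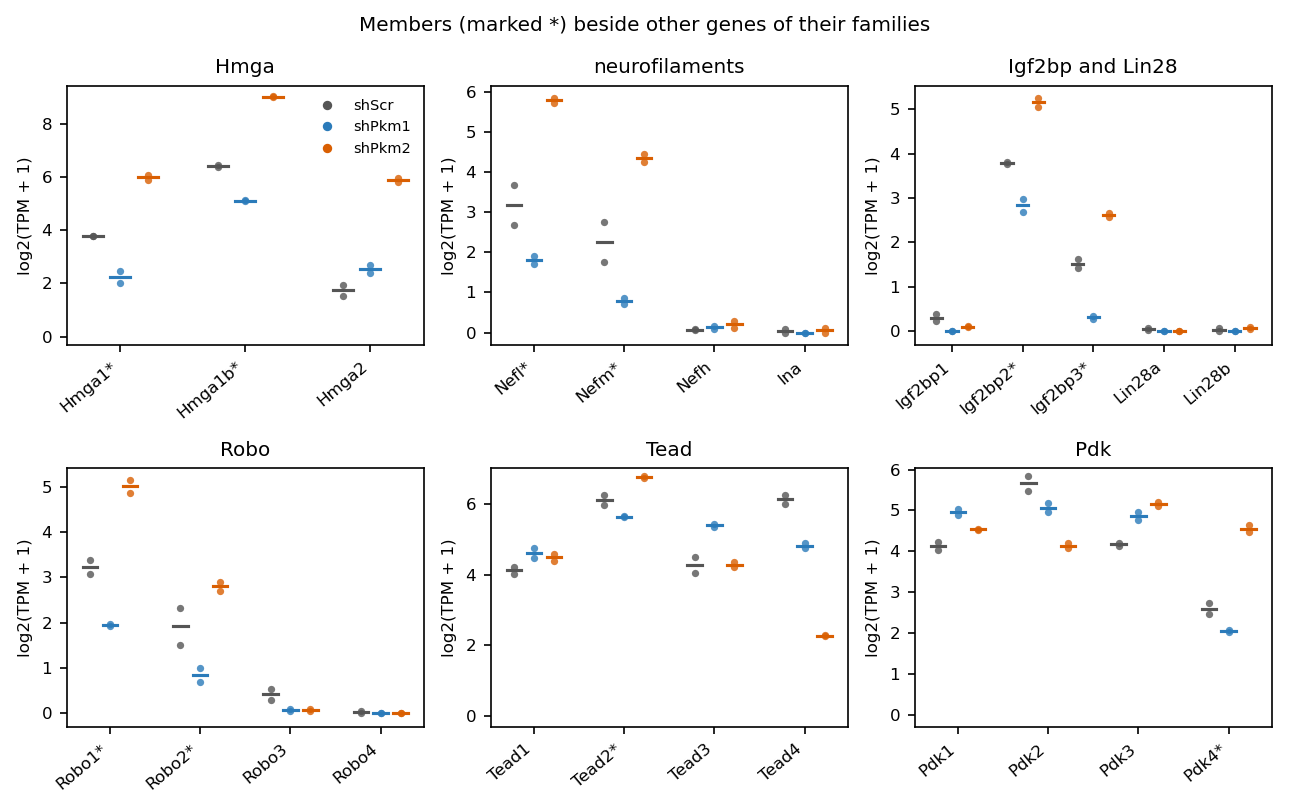
Log2(TPM + 1) of members (marked *) and other genes of 6 families in the 3 groups; dots are libraries and bars their means. The members lie lowest in shPkm1 and highest in shPkm2 by construction, while Hmga2, Tead1, Tead3, Tead4 and Pdk1 to Pdk3 have other orders and Nefh, Ina, Igf2bp1, the Lin28 genes, Robo3 and Robo4 lie near 0.

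Transcription factors and cofactors numbered 10, with a median ratio of -0.49 in shPkm1, the nearest to 0 of the role groups, and 0.69 in the shPkm2-labelled libraries. Peg3 and Zim1, zinc finger genes of 1 imprinted domain, lie 7.35 kb apart on chromosome 7. Peg3 (chr7:6703892-6730462) was at 33.4 and 34.5 TPM in shScr, 23.3 and 19.98 in shPkm1, and 101 and 86.0 in the shPkm2-labelled libraries. Zim1 (chr7:6674444-6696540) was at 5.64 and 4.28 TPM in shScr, 2.58 and 1.97 in shPkm1, and 14.3 and 13.1 in the shPkm2-labelled libraries. Both were chosen for that order of groups, and each mean in the shPkm2-labelled libraries was 2.76-fold above the controls. Usp29 of the same domain was at or below 0.33 TPM. Of 14 other imprinted genes examined, which were not chosen by the ratios, only Slc38a4, at or below 0.19 TPM in every library, had that order of group means. Igf2 was at means of 425, 98.2 and 12.3 TPM and Peg10 at 6.08, 22.7 and 28.2.

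Tead2, 1 of 4 genes for the DNA-binding partners of Yap, was at 61.9 and 74.1 TPM in shScr, 47.9 and 49.7 in shPkm1, and 108 and 106 in the shPkm2-labelled libraries. With TMM scaling its log2 fold changes were -0.86 (SE 0.0981) and 0.20 (SE 0.0958), so the difference with the shPkm2 label was small on that scale. Tead4 was at means of 68.8, 27.2 and 3.83 TPM in the 3 groups, lower in both hairpin groups (edgeR, adjusted p 2.39e-07 and 5.69e-11). Rorb, a nuclear receptor gene just inside the cutoff, was at 0.40 and 0.45 TPM in shScr, 0.09 and 0.06 in shPkm1, and 1.60 and 1.15 in the shPkm2-labelled libraries. Cited1, Rhox5, Zfhx2, Zfp704, Zfp967 and Msc, the myoblast repressor musculin, completed the group. Zfp967 shares all of its 31-base words with Zfp966 and was at 7.68 and 2.26 TPM in the shPkm2-labelled libraries, the second of which lies within the control range of 1.51 to 2.45.

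Genes best known from blood and immune cells formed a group of 15, and C1qa, C1qb and Tyrobp, which define macrophages, were at 0 in every library. Of the other macrophage markers, Cd68 was at 0.62 and 1.47 TPM in shScr, 3.24 and 2.32 in shPkm1 and 3.01 and 3.62 in the shPkm2-labelled libraries, and Lyz2 at 0.00 and 0.25, 1.59 and 1.34, and 0.09 and 0.00. Itgam went the other way, at 0.53 and 0.39 TPM in shScr, 0.15 and 0.02 in shPkm1 and 0 in both shPkm2-labelled libraries. Csf1r was at 0.20 and 0.25, 0.87 and 0.78, and 0.05 and 0.12, and Mrc1 stayed at or below 0.22. The levels of Cd68 and Lyz2 are like those of many members of the group, and the part of these markers in the result was not tested. The median ratios of the 15 members were -0.84 and 0.82, the control levels were low, with a median of 1.98 TPM, and 13 did not overlap. Hba-a1, an alpha-globin gene, was at 10.5 and 16.0 TPM in shScr, 4.19 and 4.18 in shPkm1, and 29.2 and 30.96 in the shPkm2-labelled libraries. Its partner Hbb-bt was at 0 in all 6 libraries, and 75.4% of the 31-base words of Hba-a1 occur in Hba-a2, the other adult alpha-globin gene. Alox5, which begins leukotriene synthesis, was at 17.6 and 19.96 TPM in shScr, 9.41 and 9.80 in shPkm1, and 41.6 and 39.0 in the shPkm2-labelled libraries. Its activating protein gene Alox5ap was higher in both hairpin groups, at means of 10.2, 27.8 and 22.1 TPM (edgeR, adjusted p 2.07e-05 and 0.000880). Enzyme and partner thus differed in their order.

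Receptors and signalling genes of lymphocytes and mast cells were also members. Il2rg, the shared gamma chain of cytokine receptors, was at 3.93 and 5.41 TPM in shScr, 1.38 and 1.05 in shPkm1, and 7.62 and 7.80 in the shPkm2-labelled libraries. Pik3cd, a catalytic subunit of PI 3-kinase that is common in leukocytes, was at 1.43 and 1.26 TPM in shScr, 0.41 and 0.34 in shPkm1, and 3.30 and 2.96 in the shPkm2-labelled libraries. The more abundant Pik3ca was at means of 8.41, 13.8 and 15.5 TPM and so was higher in both hairpin groups (edgeR, adjusted p 0.0159 and 0.00321). Pik3cb, at means of 2.38, 2.005 and 2.88 TPM, had the order of Pik3cd. It was lower in shPkm1 (edgeR, adjusted p 0.0106) and not called in the shPkm2-labelled libraries (0.567). Milr1, an inhibitory receptor of mast cells, was at 4.02 and 4.15 TPM in shScr, 2.55 and 1.73 in shPkm1, and 14.7 and 16.2 in the shPkm2-labelled libraries. Pag1, an adaptor just inside the cutoff, was at 1.23 and 1.18 TPM in shScr, 0.33 and 0.29 in shPkm1, and 2.09 and 1.76 in the shPkm2-labelled libraries. With TMM scaling Il2rg was at 0.28 (SE 0.196) and Pag1 at 0.25 (SE 0.177) in the shPkm2-labelled libraries, under the cutoff. Slfn3 and Slfn4, neighbours 1.11 kb apart, had control means of 0.94 TPM each. Their relative Slfn2, at means of 22.8, 1.67 and 2.82 TPM, was below the controls in both hairpin groups. Slfn9, also no member, was at means of 5.1, 3.8 and 6.7 TPM, the order of the members. In the edgeR test Slfn9 was lower in shPkm1 (adjusted p 0.000189) and not called in the shPkm2-labelled libraries (0.826). Of 8 Schlafen genes 4 had that order, the 2 members among them. Ncf4 and Duoxa1, which serve enzymes that make superoxide or hydrogen peroxide, Tigit, Plcg2, Plac8, Siglec15 and Tnfrsf9 are the other members of the group.

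Signals and their control gave 6 members with median ratios of -0.74 and 0.80. Wnt7b, a secreted Wnt ligand, was at 2.44 and 4.13 TPM in shScr, 0.27 and 0.27 in shPkm1, and 8.79 and 8.56 in the shPkm2-labelled libraries. These levels correspond to 9 and 10 counts in shPkm1 and a mean 12.2-fold lower than in shScr, the largest TPM ratio among the 8 members ranked first by the naming rule. Dusp4 was at 9.84 and 11.5 TPM in shScr, 6.77 and 8.44 in shPkm1, and 38.3 and 33.5 in the shPkm2-labelled libraries. Dusp2 was at 5.46 and 3.29 TPM in shScr, 1.64 and 1.71 in shPkm1, and 6.62 and 7.13 in the shPkm2-labelled libraries. For Dusp2 the shPkm2-labelled libraries lay closer to the higher control library than the controls lay to each other, and its TMM-scaled value in the shPkm2-labelled libraries was 0.18. Stra6, a vitamin A transporter, Calcrl, a receptor for calcitonin-family peptides, and Prr5l, a partner of mTOR complexes, complete the group.

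Dusp2 and Dusp4 stand in a list of 32 genes of the growth factor and MAPK response. Of the 30 others, 14 were higher and 5 lower in shPkm1, and 19 were higher and 5 lower in the shPkm2-labelled libraries. Between the hairpin groups 16 were higher and 5 lower in the shPkm2-labelled libraries. Over all tested genes the shares higher and lower were 31.8% and 31.4% in shPkm1, 33.9% and 34.2% in the shPkm2-labelled libraries, and 25.7% and 27.3% between the hairpin groups. The medians of the list were 0.24, 0.65 and 0.45 on the log2 scale, with those of all tested genes at 0.00, 0.01 and 0.00. Etv4, a transcription factor downstream of MAPK signalling, was at 3.24 and 4.73 TPM in shScr, 7.41 and 7.85 in shPkm1 and 34.5 and 31.9 in the shPkm2-labelled libraries. Among other phosphatases of the family, Dusp6 was at means of 5.71, 5.65 and 17.8 TPM, with log2 fold changes of -0.41 in shPkm1 (adjusted p 0.0176) and 1.19 in the shPkm2-labelled libraries (adjusted p 1.73e-06). On the TMM scale Dusp6 thus moved in both directions as the members do, although its TPM in shPkm1 was near that of shScr. Dusp1 fell in both hairpin groups, with means of 32.0, 15.8 and 19.7 TPM (adjusted p 1.33e-06 and 4.45e-06). With library totals in place of TMM, or without shPkm1 library 1, only 2 of the list genes were lower in shPkm1.

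Metabolic enzymes and transport numbered 13, with median ratios of -0.56 and 0.63, and 12 did not overlap. Car2, a cytosolic carbonic anhydrase, was at 38.3 and 30.6 TPM in shScr, 8.34 and 7.64 in shPkm1, and 83.4 and 85.4 in the shPkm2-labelled libraries. It had the most negative ratio in shPkm1 of all members, -1.98. Car13 was at means of 61.5, 68.8 and 294 TPM, and in the edgeR test it was higher in the shPkm2-labelled libraries (adjusted p 1.24e-08) and did not pass the threshold in shPkm1 (log2 fold change -0.22, adjusted p 0.105). Other carbonic anhydrase genes had further orders, such as Car3 at 47.0, 235 and 132 TPM.

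Pdk4 was at 4.5 and 5.66 TPM in shScr, 3.21 and 3.04 in shPkm1, and 23.9 and 21.1 in the shPkm2-labelled libraries. Among its relatives, Pdk2 was at means of 50.01, 32.5 and 16.6 TPM and lower in both hairpin groups (edgeR, adjusted p 0.000102 and 1.76e-07), and Pdk3 was at 17.0, 28.2 and 34.8 and higher in both (adjusted p 0.0304 and 0.000825). The sum over the 4 Pdk genes lay between 81.4 and 97.0 TPM in every library, so Pdk4 made up more of a nearly constant sum in the shPkm2-labelled libraries. Shmt1 of folate metabolism, Coq7 of ubiquinone synthesis, St6gal1, a sialyltransferase, Gnpda1 of glucosamine metabolism and Msrb2, a methionine sulfoxide reductase, are further members. Gnpda1 was at 24.4 and 17.4 TPM in shPkm1, the first of which lies just above the lower control library (24.37 against 24.33).

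Cytoskeletal members were Pdlim1, Epb41, Strip2 and Etl4. Pdlim1, which binds alpha-actinin at stress fibres, was at 143 and 146 TPM in shScr, 76.4 and 72.7 in shPkm1, and 196 and 204 in the shPkm2-labelled libraries. With TMM scaling it was at -1.35 (SE 0.103) in shPkm1 and at 0.01 (SE 0.0996) in the shPkm2-labelled libraries, under the cutoff there. Epb41, the membrane skeleton protein of red cells, was at 2.89 and 2.72 TPM in shScr, 1.94 and 1.76 in shPkm1, and 12.4 and 9.84 in the shPkm2-labelled libraries.

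Members at the edge of the rule show how gradual it is. Rnaseh2c, a subunit of ribonuclease H2, was just inside at 59.1 and 77.1 TPM in shScr, 48.0 and 51.3 in shPkm1, and 88.9 and 91.8 in the shPkm2-labelled libraries, with ratios of -0.45 and 0.40. Just outside lay Cmbl, with ratios of -0.40 (-0.398 before rounding) and 0.63, Cenpv with -0.60 and 0.40 (0.396 before rounding), and Fuca2 with -0.39 and 0.55. Cmbl was at 9.79 and 11.5 TPM in shScr, 7.45 and 8.25 in shPkm1, and 16.4 and 17.7 in the shPkm2-labelled libraries. The libraries of these 3 outside genes also did not overlap between groups. No gap separates members from other genes at the cutoff.

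Kcnab1 is the member of a list of 65 ion channel genes, of which 61 were in the table. Of 40 others tested, 15 were higher and 15 lower in shPkm1, 9 higher and 17 lower in the shPkm2-labelled libraries, and 6 higher and 20 lower in the shPkm2-labelled libraries than in shPkm1. Over all tested genes 31.8% were higher and 31.4% lower in shPkm1, 33.9% and 34.2% in the shPkm2-labelled libraries, and 25.7% and 27.3% between the hairpin groups, so the counts in shPkm1 lie near the background. The medians of the 40 channels were 0.04, -0.28 and -1.02, against 0.00, 0.01 and 0.00 over all tested genes. The 9 higher channels became 5 with DESeq2 and also without shPkm2 library 1.

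The state of the cultures was read from lists that held no member, with the edgeR quasi-likelihood test at an adjusted p under 0.05. All 30 muscle differentiation genes tested were lower in each hairpin group than in shScr, with medians of -1.74 and -7.42 on the log2 scale, and 29 of 30 were lower in the shPkm2-labelled libraries than in shPkm1. Of 30 cell cycle genes 22 were higher and 0 lower in shPkm1, all 30 were higher in the shPkm2-labelled libraries, and all 30 were higher there than in shPkm1. Without control library 1, or with the replicate number as a block, 1 cell cycle gene was lower in shPkm1. Over all tested genes 31.8% were higher and 31.4% lower in shPkm1, and 33.9% and 34.2% in the shPkm2-labelled libraries. Each list thus moved in the same direction in both hairpin groups. Summed myoblast markers were at 3872 and 4254 TPM in shScr, 3317 and 3467 in shPkm1 and 1430 and 1330 in the shPkm2-labelled libraries. Des gave most of that sum, with 2248 and 2322 TPM in shScr, and Myod1, Itga7, Ncam1, Chrna1 and Cdh15 had the same order of groups without overlap, for example Myod1 at 294 and 306 TPM in shScr, 214 and 209 in shPkm1 and 84.3 and 91.7 in the shPkm2-labelled libraries. Other markers differed from that order. Myf5 was at 11.6 and 13.4 TPM in shScr, 20.8 and 18.2 in shPkm1 and 59.4 and 54.2 in the shPkm2-labelled libraries, Fgfr4 at 0.61 and 0.61, 7.10 and 6.55, and 0.21 and 0.28, and the marker Msc is itself a member. The part that differentiation state plays in the members' levels was not tested.

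Use of transcripts within a gene was examined next, since the rule summed transcripts and did not use their shares. Sums and shares come from the same transcript values, so a transcript absent in shPkm1 changes both. Usage is therefore not independent of the choice of members, and nothing is read from their counts beside those of all genes. In edgeR's gene-level test of differential transcript usage, 46 members had at least 2 transcripts that passed the filter. With shPkm1 against shScr 3 of 46 members had an adjusted p under 0.05, where 3.86% of 7704 genes did. With the shPkm2-labelled libraries against shScr it was 0 of 46, against 6.74% of all genes, and 5 of 46 had an unadjusted p under 0.05. Without control library 2 this 0 became 3. Between the hairpin groups it was 4 of 46, against 4.02% of all genes. By Simes' test the count was 0 in each of the 3 comparisons, and with the replicate number as a block the 3 and 4 calls became 0.

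Duoxa1, which encodes the maturation factor of dual oxidase, had the smallest p. Its transcript XM_006499094.3 made up 98.9% of the gene's TPM in shScr, 6.63% in shPkm1 and 98.3% in the shPkm2-labelled libraries. A second transcript, XM_017316921.1, was listed at 0 in shScr and in the shPkm2-labelled libraries and made up 83.7% in shPkm1, at 1.64 and 1.14 TPM. It passed the low-count filter only through the shPkm1 libraries, where it is high. With these 2 transcripts tested, the gene entered the test only through that pass, so its call supports nothing. The adjusted p of Duoxa1 was 0.00980 for shPkm1 against shScr and 0.00799 between the hairpin groups. These shares rest on 24 and 19 estimated counts of the second transcript and on 25 of the whole gene in each shPkm1 library. Both calls were lost without either shPkm1 library, with adjusted p from 0.0596 to 0.0946. The call against shScr was also lost without control library 1 (0.0511), and that between the hairpin groups without either shPkm2 library (0.0768 and 0.0725).

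Entpd6, a nucleoside diphosphatase of the Golgi, was called in shPkm1 against shScr (adjusted p 0.0221) and between the hairpin groups (0.0216). Its main transcript NM_172117.5 made up 76.8% of TPM in shScr, 78.0% in shPkm1 and 58.7% in the shPkm2-labelled libraries, and XM_006498643.2 made up 7.63%, 12.9% and 25.7%. A further transcript, XM_006498644.3, was listed at 0 in both shPkm1 libraries. Zim1 was called between the hairpin groups (adjusted p 0.0390) and missed the threshold against shScr (0.0578). Its transcript NM_011769.4 was listed at 0 in both shPkm1 libraries and made up 26.4% and 6.07% of TPM in the controls and 23.1% and 17.3% in the shPkm2-labelled libraries. The fourth member was 2610318N02Rik, with adjusted p of 0.0401 and 0.0468 and at most 13 counts of any transcript in shPkm1. The calls of Entpd6 and 2610318N02Rik were lost without any 1 of the 6 libraries, and that of Zim1 without any but control library 2.

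**Figure D5:**
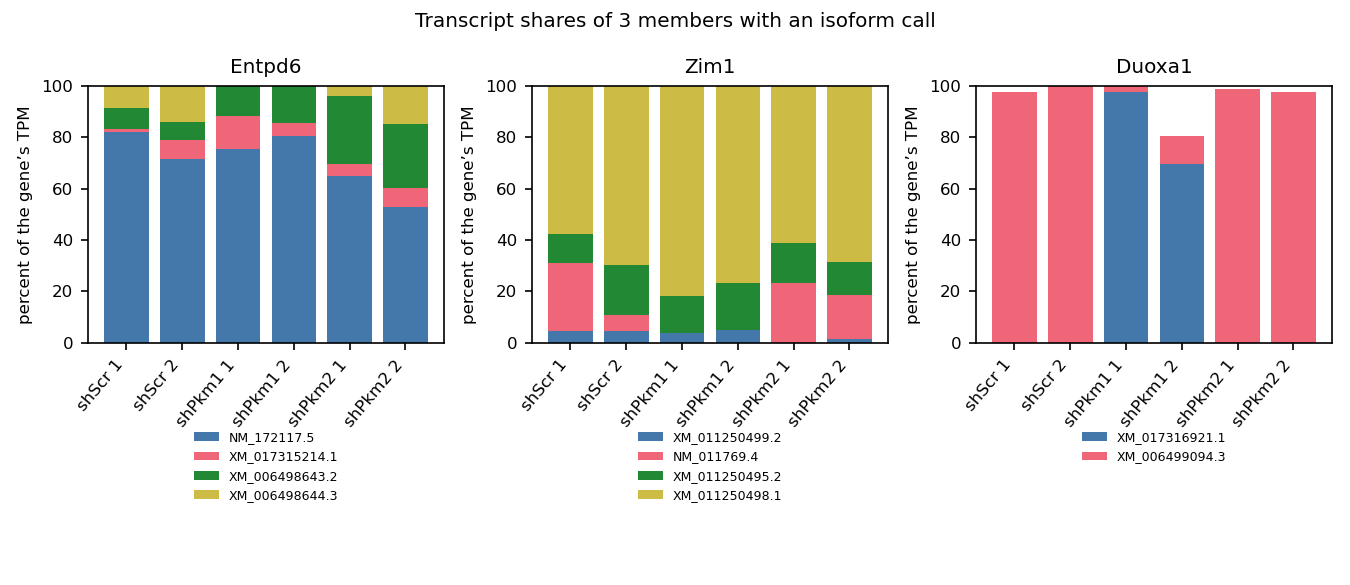
Share of each transcript in the TPM of Entpd6, Zim1 and Duoxa1, in percent, stacked for each of the 6 libraries; a bar short of 100 leaves room for transcripts that were too low to be tested. Duoxa1 is blue in shPkm1 and red elsewhere, and a red segment of Zim1 and a yellow one of Entpd6 are missing in shPkm1.

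Members were also placed on the genome (GRCm38.p6). Of the 101, 9 (8.91%) are on the X chromosome, 11 (10.9%) on chromosome 13 and 8 (7.92%) on chromosome 16, where 3.17%, 3.76% and 3.02% of tested genes lie. Chromosome 13 holds the 10 histone members, within the histone cluster. Other neighbours are Nefl with Nefm, Zim1 with Peg3, Slfn4 with Slfn3, Gpnmb with Igf2bp3 at 27.0 kb, and Hmga1 with AI413582 at 0.097 kb. Soga3 overlaps 9330159F19Rik by 0.688 kb on chromosome 10, and Robo1 and Robo2 lie 844 kb apart on chromosome 16. Overlapping and adjoining genes can share reads where strand was not used in counting, which is not given in the sources used here. The median span of a member's gene was 22.1 kb, close to the 23.9 kb of tested genes.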

How the data were processed

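RNA-seq values of 6 C2C12 libraries were taken from 1 deposited table with a row per RefSeq transcript (57920 rows, 17558 genes). Its columns, per the file headers, hold estimated counts, FPKM and TPM. Fractional estimated counts were deposited, FPKM was made by the authors relative to length and sequencing depth, and deposited TPM sums to 999999 or 1000000 in a library. The submitters' processing notes name mm10, HISAT, StringTie, Bowtie, RSEM and DESeq2, without versions or roles. The read length, strandedness and filters are not given in the sources used here. The authors' 9 columns of group means were not used, and 0 columns of single libraries were left out.

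TPM was summed per gene for the rule given in the report. The members, lists and named genes were chosen with earlier results of these data known, and role groups and families after the values had been seen. Named genes were the 8 members with the largest smaller ratio (mean of at least 50 counts, no overlap), the 6 most abundant, members of the lists, the 3 on each side of the cutoff and those with an isoform call. Further members, and the relatives of members, were named after their values had been seen.

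Counts were summed per gene, rounded and tested with edgeR 4.0.16 (R 4.3.3, filterByExpr with minimum count 10 and total 15, TMM, quasi-likelihood F test, all 6 libraries, Benjamini-Hochberg over 12643 genes, two-sided). Standard errors are the log2 fold change divided by the square root of F. Transcript usage was tested with diffSpliceDGE on rounded transcript counts over 7704 genes. Both tests were run on simulated counts with few changed genes and a fixed spread. That setting differs from these data, where most tested genes were called, so it does not check scaling or error rates here. Shared sequence was the share of a member's 31-base words in transcripts of other genes (GENCODE M21). Alternatives were other pseudocounts, cutoffs, scalings, FPKM, DESeq2 1.42.0, no filter, Simes' test, leaving out single libraries, and a block for the replicate number. Symbols matched 17445 genes. A permutation of 2 libraries against 2 cannot pass 0.05, so every test comes from a model over all genes or transcripts. 1 gene list is not reported here.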

Additional observations from a re-analysis of the deposited data

How the results depend on the processing

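The number of members depended on the settings of the rule. It was 101 as given, 263 with a pseudocount of 0.1 TPM and 36 with a pseudocount of 5, 43 with a cutoff of 0.6, and 236 when edgeR's TMM fold changes were held to the same cutoffs, of which 66 were members. TPM divided by the TMM factor gave 91 genes, 66 of them members, and FPKM gave 95, of which 70 were members. Leaving out each library gave between 85 and 121 genes, with 67 members kept without control library 2. Members kept under every setting at the cutoff of 0.4, FPKM and the block aside, numbered 25. Of the 202 ratios, 5 changed sign: in shPkm1, Stra6 (0.00899) and Tnfrsf9 (0.0430) without control library 2 and H3c10 (0.144) without shPkm1 library 1, whose ranges without single libraries began at -0.98, -0.78 and -1.94, and Rnaseh2c (-0.0377) and AI413582 (-0.00248) in the shPkm2-labelled libraries with edgeR's TMM values. Low counts limit the 24 members with a mean under 50.

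Isoform calls were unstable. For shPkm1 against shScr there were 3, with 0 by Simes' test, 1 among transcripts with a mean of at least 50 counts and 0 to 2 when each library was left out. Between the hairpin groups there were 4, with 0 by Simes' test, 1 with that mean and 0 to 4 without single libraries. For the shPkm2-labelled libraries against shScr there were 0, and 3 without control library 2. The causes were not tested.

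Replicate numbers are shared by the groups, but same-numbered libraries did not deviate together (correlations of -0.0165, 0.0377 and 0.0580 over 12307 genes), so the numbers were not taken as pairs. With a block for the replicate number, isoform calls were 0 for shPkm1 against shScr and 0 between the hairpin groups. The rule asked of each replicate number gave 52 members. Gene-level counts moved to 7922, 8566 and 6682 with the block, from 7984, 8602 and 6703, and all 33 alternatives to these counts stayed within 1.5-fold. With library totals in place of TMM, 65.8%, 69.3% and 61.3% of calls were higher, against 50.3%, 49.8% and 48.4%, and the median of all genes shifted to 0.19, 0.33 and 0.14. Of 660 list counts under alternatives, 638 stayed within 1.5-fold.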

Other observations

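Lists that held no member are given here as values from the edgeR quasi-likelihood test at an adjusted p under 0.05. Over all 12643 tested genes 31.8% were higher and 31.4% lower in shPkm1, 33.9% and 34.2% in the shPkm2-labelled libraries, and 25.7% and 27.3% there against shPkm1, and list counts near these shares are no result about a list. Of 28 Nrf2 antioxidant genes, 12 were higher and 8 lower in shPkm1, 20 higher and 4 lower in the shPkm2-labelled libraries, and 21 higher and 2 lower there than in shPkm1, with medians of 0.07, 0.78 and 0.71 on the log2 scale. Of 38 tested genes of Bmp and Tgf-beta signalling, 27 were higher and 1 lower in shPkm1, 23 higher and 5 lower in the shPkm2-labelled libraries, and 7 higher and 16 lower there than in shPkm1. Yap and Tead targets, read beside the member Tead2, were higher in 12 and lower in 5 of 24 in shPkm1, higher in 10 and lower in 9 in the shPkm2-labelled libraries, and higher in 4 and lower in 13 there than in shPkm1. Amino acid and nutrient transporters were higher in 17 and lower in 18 of 42 in shPkm1, higher in 9 and lower in 19 in the shPkm2-labelled libraries, and higher in 8 and lower in 20 there than in shPkm1. The 9 became 18 with library totals in place of TMM and 14 without control library 2, and the 8 became 5 without shPkm1 library 1 and without either shPkm2 library. Without shPkm1 library 1, 5 Nrf2 genes and 3 Yap and Tead targets were lower in shPkm1, and 3 such targets also without shPkm1 library 2. With library totals 2 Nrf2 genes were lower in the shPkm2-labelled libraries, and the single lower gene of Bmp and Tgf-beta signalling became 0 to 2 genes over the alternatives.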
